A study of Mus musculus with 4 samples.

Results

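The mitochondrial carrier family, Slc25, moves metabolites across the inner mitochondrial membrane. Its members were taken as every gene whose array probe was named, through the accession given for the probe, by a symbol of Slc25a followed by a number, together with the uncoupling proteins Ucp1, Ucp2 and Ucp3. There were 50 such genes among 22916 named genes, read by 85 of 56605 probes, and each gene was followed through its brightest probe. Signals were on the log2 scale after quantile normalization of the arrays.

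The arrays measured RNA of dispersed pancreatic islet cells from 60-week-old C57BL/6 mice labeled male. Cells of 2 arrays had been kept with a scrambled peptide (replicates 1 and 2) and cells of 2 arrays with MOTS-c, a short peptide encoded in the mitochondrial genome (replicates 2 and 3), each peptide at 10 μM for 24 h ex vivo. The design asks how MOTS-c moves gene expression in aged islet cells. All cells came from littermates and were cultured in serum, untreated cells are not analysed here, and the labels do not tie each array to an animal, so p-values measure only the spread between these arrays.

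Carriers of this family exchange or import ADP and ATP, phosphate, dicarboxylates, amino acids, cofactors and metal ions, and so join the reactions of the matrix to those of the cytosol. In β-cells the carriers of the malate-aspartate shuttle pass reducing equivalents of glycolysis to the respiratory chain, citrate export feeds cytosolic signals of glucose metabolism, and uncoupling proteins have been studied as brakes on ATP formation. The substrate is unsettled for several members.

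The whole series set limits on these comparisons. All 4 arrays lay on 1 slide, and MOTS-c replicates 2 and 3 differed by at least 1.5-fold at 3959 of 35087 probes tested, against 2242 for the scrambled arrays. Xist, transcribed from the inactive X chromosome, lay at 23.7 to 33.5 times local background on all 4 arrays, and 7 probes of 4 Y-linked genes were well above background in 0 of 28 readings, which goes against the male label. Of 8 islet endocrine markers, 7 were well above background on all 4 arrays and the eighth, Ppy, on 3. In bulk cells of this kind, fewer cells of a type and less RNA per cell cannot be told apart.

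Most carriers were detected, and no carrier passed the adjusted test. Well above background on all 4 arrays were 43 of the 50 carriers (86%), against 64.5% of all named genes, and these 43 were tested. At an adjusted p under 0.05, limma called 0 carriers, beside 0% of all 35087 probes. At an unadjusted p under 0.05 it called 4 of 43 carriers (9.30%), beside 7.85% of all probes and 8.61% of the brightest probes of 15474 named genes. Slc25a30 and Slc25a14 were the 2 higher with MOTS-c (4.65% of carriers, beside 3.03% of probes), and Slc25a53 and Slc25a41 the 2 lower (4.65%, beside 4.82%). The share of carriers called was thus near that of all genes.

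Differences were small across the family, with a median absolute log2 difference of 0.11, beside 0.14 for the brightest probes of named genes. The median log2 difference, MOTS-c minus scrambled, was -0.04 for carriers and 0.01 for all probes, and the carriers ranged from -0.53 to 0.49. None of the 43 carriers reached 1.5-fold, beside 5.24% of all probes, a share at which few of 43 genes would reach it. The median log2 signal was 9.72 for the carriers, 8.57 for all probes and 10.43 for the brightest probes of named genes. The 2 arrays of a group were also close at these genes, with a median difference of 0.12 within the scrambled group (0.14 over the brightest probes of named genes, 0.16 over all probes) and 0.10 within the MOTS-c group (0.16 and 0.19). In 13 carriers (30.2%) the difference between groups was larger than the differences within both groups, as it was for 29.5% of named genes.

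**Figure D1:**
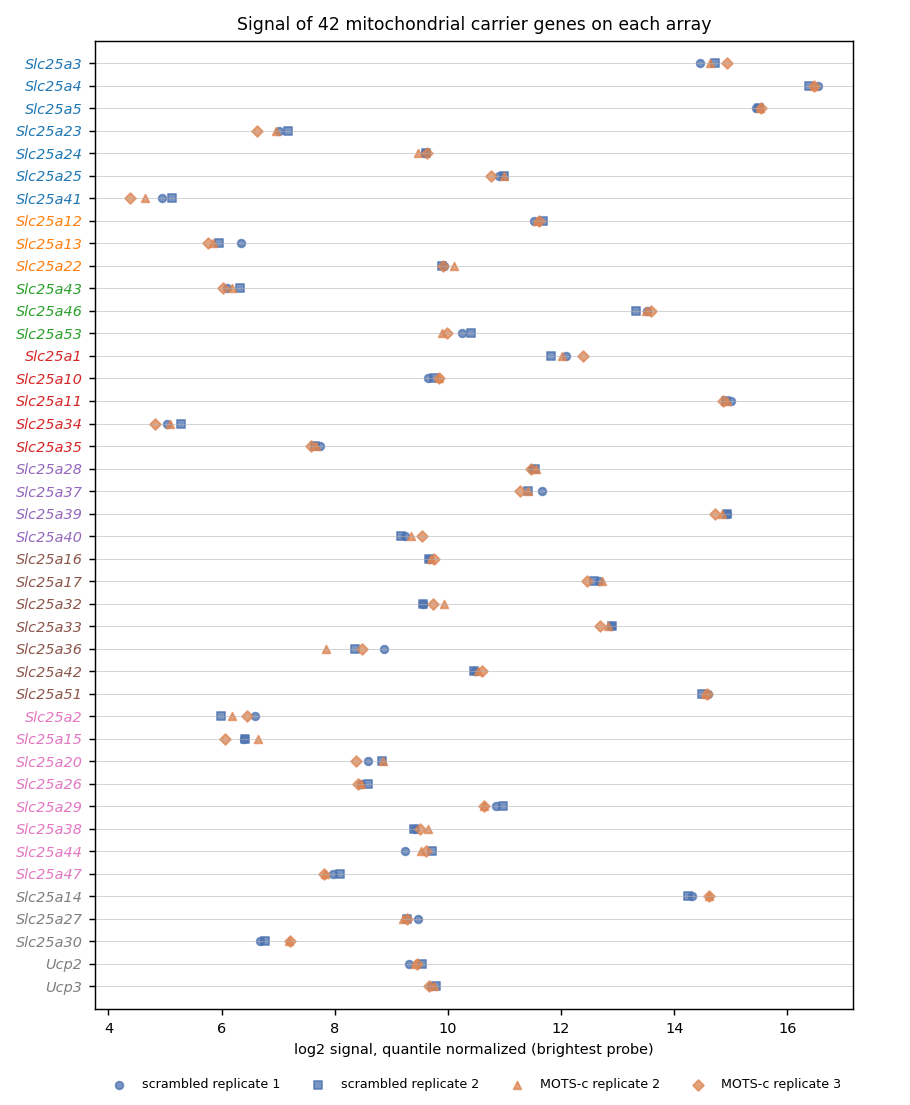
Log2 signal of 42 tested carriers (rows, names colored by role) on each of the 4 arrays, with scrambled arrays in blue and MOTS-c arrays in orange; the 4 values of most genes lie close together, and Slc25a30 has both orange points to the right of both blue ones.

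The groups did not overlap at 19 of 43 carriers (44.2%), beside 38% of all probes and 42.5% of the brightest probes of named genes. With MOTS-c, 9 of them were higher (20.9%, beside 19.4% of probes) and 10 were lower (23.3%, beside 18.6%). The 9 were Slc25a5, Slc25a10, Slc25a14, Slc25a16, Slc25a30, Slc25a32, Slc25a38, Slc25a40 and Slc25a42. The 10 were Slc25a13, Slc25a23, Slc25a26, Slc25a29, Slc25a33, Slc25a37, Slc25a39, Slc25a41, Slc25a47 and Slc25a53. An exact permutation test of 2 arrays against 2 cannot give a two-sided p below 0.333, so separation of the groups was read only against these background shares.

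The 95% confidence intervals bounded what the arrays could show. In 25 of the 43 carriers the interval lay within a 1.5-fold change in either direction, and in 42 it lay within 2-fold, the exception being Slc25a36. Among the brightest probes of 15474 named genes, it lay within 1.5-fold for 8725 and within 2-fold for 13554. The median standard error was 0.13 for carriers and 0.15 for all probes. Small changes in single carriers were therefore not detectable with 2 arrays per group.

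**Figure D2:**
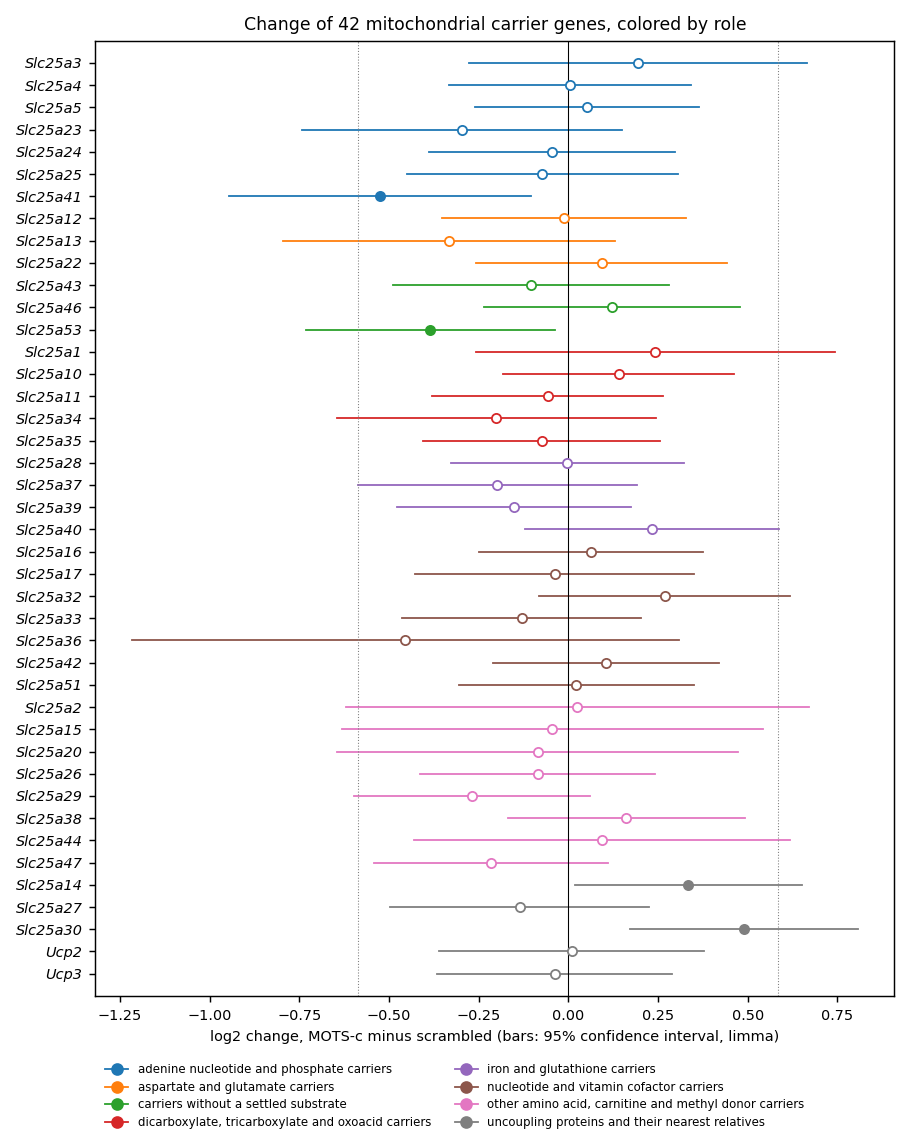
Log2 change (MOTS-c minus scrambled, points) of 42 tested carriers with its 95% confidence interval from limma (bars), colored by role, with filled points at an unadjusted p under 0.05 and dotted lines at 1.5-fold; 4 points are filled and none passes the dotted lines.

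The uncoupling proteins and their nearest relatives held both carriers that were higher at an unadjusted p under 0.05. Of 6 members, 5 were tested, with differences from -0.14 to 0.49. For these carriers and for Slc25a53, the promoters are shown here because a promoter lets the genes that stood out be compared at the sequence level. Each runs 5′ to 3′ on the gene's strand, from 250 bases before to 50 bases after an annotated start, as RefSeq gives it for GRCm38.p6, with capitals marking the motif matches named after them.
Slc25a30, chr14:75786988-75787287, minus strand: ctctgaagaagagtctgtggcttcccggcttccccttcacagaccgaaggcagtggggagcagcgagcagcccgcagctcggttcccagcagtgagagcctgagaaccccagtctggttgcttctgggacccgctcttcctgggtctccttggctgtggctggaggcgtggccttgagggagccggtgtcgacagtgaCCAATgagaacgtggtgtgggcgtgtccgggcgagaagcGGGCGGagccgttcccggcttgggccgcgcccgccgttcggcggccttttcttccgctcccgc
Slc25a14, the first of 3 annotated starts, chrX:48623198-48623497, plus strand: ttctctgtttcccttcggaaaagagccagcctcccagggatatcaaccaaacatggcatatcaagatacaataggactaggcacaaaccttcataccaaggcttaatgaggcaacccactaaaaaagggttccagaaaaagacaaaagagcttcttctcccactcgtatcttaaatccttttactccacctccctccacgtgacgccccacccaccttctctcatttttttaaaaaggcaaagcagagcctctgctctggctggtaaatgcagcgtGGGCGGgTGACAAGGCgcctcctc
Slc25a53, the first of 2 annotated starts, chrX:137038253-137038552, minus strand: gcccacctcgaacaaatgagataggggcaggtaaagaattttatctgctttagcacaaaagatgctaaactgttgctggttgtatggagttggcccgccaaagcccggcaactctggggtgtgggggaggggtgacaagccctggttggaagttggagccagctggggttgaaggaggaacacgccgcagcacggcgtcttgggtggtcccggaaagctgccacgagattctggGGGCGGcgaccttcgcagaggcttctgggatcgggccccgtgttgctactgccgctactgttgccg

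The SP1 motif GGGCGG matched in all of these windows and in 35.7% of 32851 promoters. Counted over all annotated starts of a gene, it matched in 31 of the 39 carriers with a promoter entry and in 38.2% of 27025 genes. It therefore does not set these genes apart from other carriers. A CCAAT box (CCAAT) lay upstream of the SP1 motif in Slc25a30. It matched in 37.4% of promoters, 41.1% of genes and 19 of the 39 carriers. The antioxidant response element TGACNNNGC lay just downstream of the SP1 motif in Slc25a14. It matched in 12.4% of promoters, 14.0% of genes and 10 of the 39 carriers. The CCAAT box and this element also matched at the second annotated start of Slc25a53, which is not printed. Both strands were searched, and the matches printed do not overlap each other. The motifs of NRF1 (GCGCATGC, 2.71% of promoters), GABP (CCGGAAGT, 3.89%) and CREB (TGACGTCA, 1.79%) and the TATA box (TATAAA, 13.6%) had no match in these windows. A match is a description of letters and not of binding.

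Slc25a30, a relative of the uncoupling proteins first described in kidney, had log2 signals of 6.67 and 6.76 with scrambled peptide against 7.20 and 7.21 with MOTS-c. Both MOTS-c arrays were higher than both scrambled arrays, and the gap was several times the difference within either group. The log2 difference was 0.49 with a standard error of 0.12 (95% confidence interval 0.17 to 0.81, 1.40-fold, unadjusted p = 0.0114, limma adjusted p = 0.526). The probe was dim, at 3.46 to 5.10 times its local background. Without scrambled replicate 1 the difference was 0.45 and no longer had an unadjusted limma p under 0.05.

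Slc25a14, a relative best known in brain, had log2 signals of 14.32 and 14.23 with scrambled peptide against 14.61 on each MOTS-c array. The MOTS-c arrays were higher without overlap and nearly equal to each other. The log2 difference was 0.33 with a standard error of 0.12 (95% confidence interval 0.02 to 0.65, 1.26-fold, unadjusted p = 0.0424, limma adjusted p = 0.614). It lost the unadjusted p under 0.05 with any array left out (0.28 to 0.38), and also when a shift to a common 75th percentile took the place of the quantile step (0.27).

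The uncoupling proteins themselves showed no such gap. Ucp2, the form found in islets and many other tissues, had log2 signals of 9.31 and 9.54 with scrambled peptide against 9.42 and 9.46 with MOTS-c, both within the scrambled range. Its log2 difference was 0.01 (95% confidence interval -0.36 to 0.38, limma adjusted p = 0.995), and -0.00 under the 75th percentile shift. Ucp3, the form of muscle and brown fat, had 9.69 and 9.79 with scrambled peptide against 9.75 and 9.66 with MOTS-c, and the groups overlapped (log2 difference -0.04, 95% confidence interval -0.37 to 0.29). Slc25a27, a relative mainly of brain, differed by -0.14 with overlap. Its dimmer probes were lower without overlap, at -0.33 and -0.20, neither with an unadjusted p under 0.05. Ucp1, which makes heat in brown fat, was well above background on 0 arrays, at 0.888 to 1.47 times local background.

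Carriers of adenine nucleotides and phosphate supply ATP synthase and hand its product to the cytosol. Of 8 members, 7 were tested, and their differences ran from -0.53 to 0.19. Slc25a4 and Slc25a5 exchange cytosolic ADP for matrix ATP. Slc25a4 had log2 signals of 16.55 and 16.39 with scrambled peptide against 16.48 and 16.47 with MOTS-c, inside the scrambled range (difference 0.00, 95% confidence interval -0.33 to 0.34). The sign of this near-zero value turned under the 75th percentile shift (-0.07) and the normexp background correction (-0.01). Slc25a4 has another bright probe, which was higher on both MOTS-c arrays, at 14.99 and 14.92 with scrambled peptide against 15.21 and 15.26 with MOTS-c (difference 0.28, 95% confidence interval -0.04 to 0.60, limma adjusted p = 0.684), and the mean over its probes was 0.14.

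Slc25a5 had log2 signals of 15.45 and 15.51 with scrambled peptide against 15.52 and 15.54 with MOTS-c. The groups did not overlap, but by very little, and the difference of 0.05 (95% confidence interval -0.26 to 0.37) became -0.03 under the 75th percentile shift. Slc25a3, which imports phosphate for ATP synthase, had 14.45 and 14.73 with scrambled peptide against 14.63 and 14.93 with MOTS-c. Its groups overlapped, with a difference of 0.19 (95% confidence interval -0.28 to 0.66, limma adjusted p = 0.837).

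The ATP-Mg/phosphate carriers change the adenine nucleotide content of the matrix. Slc25a41, the member that lacks the calcium-binding domain of the others, had log2 signals of 4.94 and 5.13 with scrambled peptide against 4.65 and 4.37 with MOTS-c. Both MOTS-c arrays were lower, and the arrays within each group also spread. The log2 difference of -0.53 had a standard error of 0.16 (95% confidence interval -0.95 to -0.10, 0.695-fold, unadjusted p = 0.0244, limma adjusted p = 0.563). Its signal was only 1.42 to 1.91 times local background. The other probe of the gene was well above background on 0 arrays, at 1.31 to 1.5 times. With the normexp correction, which adds an offset to every signal, the difference of the tested probe was -0.13 and did not have an unadjusted p under 0.05. The methods' t-test and limma with a trend also gave no unadjusted p under 0.05. The same loss came without scrambled replicate 1 (-0.62), scrambled replicate 2 (-0.43) or MOTS-c replicate 3 (-0.39).

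The calcium-regulated members were Slc25a23, Slc25a24 and Slc25a25. Slc25a23 was lower on both MOTS-c arrays, with a log2 difference of -0.30 (95% confidence interval -0.74 to 0.15). Slc25a24 and Slc25a25 differed by -0.05 and -0.07, and their groups overlapped. Slc25a31, the ADP/ATP carrier of the testis, was well above background on 0 arrays, at 0.805 to 1.21 times local background.

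Aspartate and glutamate carriers were of interest because the study follows these amino acids. Of 4 members, 3 were tested, and none had an unadjusted p under 0.05. Slc25a12, an exchanger of matrix aspartate for cytosolic glutamate in the malate-aspartate shuttle, had log2 signals of 11.52 and 11.69 with scrambled peptide against 11.58 and 11.60 with MOTS-c. The MOTS-c arrays lay inside the scrambled range, with a difference of -0.01 (95% confidence interval -0.35 to 0.33, limma adjusted p = 0.992) that became 0.04 with normexp correction and 0.03 as a mean over its probes.

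Slc25a13, the other aspartate-glutamate exchanger, had log2 signals of 6.33 and 5.95 with scrambled peptide against 5.86 and 5.76 with MOTS-c. The probe was dim, at 2.51 to 2.97 times its local background. The MOTS-c arrays were lower, but the gap to scrambled replicate 2 was smaller than the difference between the scrambled arrays. The log2 difference of -0.33 had a 95% confidence interval of -0.80 to 0.13 (unadjusted p = 0.121, limma adjusted p = 0.725). Without scrambled replicate 1 it was -0.14, without scrambled replicate 2 it was -0.53 with an unadjusted p just under 0.05, and with normexp correction it was -0.11.

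Slc25a22, which imports glutamate with a proton, had log2 signals of 9.94 and 9.89 with scrambled peptide against 10.10 and 9.91 with MOTS-c. The groups overlapped, with a difference of 0.09 (95% confidence interval -0.26 to 0.44, limma adjusted p = 0.903) and of -0.06 as a mean over its probes. Slc25a18, the other glutamate carrier, was well above background on 0 arrays, at 1.01 to 1.22 times local background.

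Carriers of dicarboxylates, tricarboxylates and oxoacids had 5 of 6 members tested, with differences from -0.20 to 0.24 and none at an unadjusted p under 0.05. Slc25a11, the oxoglutarate-malate exchanger of the malate-aspartate shuttle, had log2 signals of 14.99 and 14.92 with scrambled peptide against 14.93 and 14.86 with MOTS-c. The groups overlapped, and the difference was -0.06 (95% confidence interval -0.38 to 0.26). Slc25a10, which exchanges malate or succinate for phosphate, had 9.65 and 9.76 with scrambled peptide against 9.84 on each MOTS-c array. These groups did not overlap, with a difference of 0.14 (95% confidence interval -0.18 to 0.46, limma adjusted p = 0.830).

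Slc25a1, the citrate exporter, had log2 signals of 12.09 and 11.82 with scrambled peptide against 12.01 and 12.38 with MOTS-c. MOTS-c replicate 3 alone lay above both scrambled arrays, and the difference was 0.24 (95% confidence interval -0.26 to 0.74, limma adjusted p = 0.808). The remaining members, Slc25a34 and Slc25a35, differed by -0.20 and -0.07 with overlapping groups. Slc25a21, which carries oxodicarboxylates of lysine and tryptophan breakdown, was well above background on 0 arrays, near its local background.

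Carriers of nucleotides and vitamin cofactors were all detected and tested (8 of 8), and none had an unadjusted p under 0.05. Slc25a32, the folate and flavin carrier, was higher on both MOTS-c arrays with a log2 difference of 0.27 (95% confidence interval -0.08 to 0.62). Slc25a42, a coenzyme A carrier, and Slc25a16 were also higher without overlap, by 0.11 and 0.06. The pyrimidine nucleotide carrier Slc25a33 was lower without overlap (-0.13). Slc25a51, the NAD carrier, differed by 0.02 and the peroxisomal carrier Slc25a17 by -0.04, both with overlap.

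Slc25a36, the other pyrimidine nucleotide carrier, was the least certain member. Its log2 signals were 8.87 and 8.36 with scrambled peptide against 7.85 and 8.48 with MOTS-c, so that MOTS-c replicate 2 was lowest and replicate 3 lay inside the scrambled range. The log2 difference of -0.45 had a standard error of 0.29 (95% confidence interval -1.22 to 0.31), and a dimmer probe of the gene differed by 0.13. The value turned on single arrays, with -0.14 without MOTS-c replicate 2 and -0.78, at an unadjusted limma p under 0.05, without MOTS-c replicate 3, and on the scrambled side with -0.20 without replicate 1 and -0.71 without replicate 2.

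Iron and glutathione carriers were all tested (4 of 4), and none had an unadjusted p under 0.05. Slc25a37 and Slc25a28, the mitoferrins, which import iron for heme and iron-sulfur clusters, differed by -0.20 without overlap and by -0.00 with overlap. Slc25a39 and Slc25a40, which serve glutathione import, lay on opposite sides of 0 without overlap, at -0.15 and 0.23. All 3 probes of Slc25a40 were higher on both MOTS-c arrays, by 0.23, 0.42 and 0.44, and none of them had an unadjusted p under 0.05.

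Carriers of other amino acids, carnitine and the methyl donor had 8 of 10 members tested, with differences from -0.27 to 0.16 and none at an unadjusted p under 0.05. Slc25a29, a carrier of basic amino acids, was lower on both MOTS-c arrays, with log2 signals of 10.84 and 10.98 with scrambled peptide against 10.64 on each MOTS-c array (difference -0.27, 95% confidence interval -0.60 to 0.06). Its unadjusted p was under 0.05 with normexp correction (-0.30) and with no filter on dim probes (-0.27). Slc25a47, a carrier of liver, and Slc25a26, which imports the methyl donor S-adenosylmethionine, were lower without overlap (-0.22 and -0.09). Slc25a38, the glycine carrier needed for heme synthesis, was higher without overlap, by 0.16.

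The ornithine carriers Slc25a2 and Slc25a15 differed by 0.02 and -0.04, the carnitine-acylcarnitine carrier Slc25a20 by -0.09 and the branched-chain amino acid carrier Slc25a44 by 0.09, all with overlap. Slc25a45 was well above background on 0 arrays (near its local background), and Slc25a48, a choline carrier, on 1 array (1.41 to 1.55 times).

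Of the 4 carriers without a settled substrate, 3 were tested. Slc25a53, an X-linked member, had log2 signals of 10.25 and 10.41 with scrambled peptide against 9.90 and 9.99 with MOTS-c. Both MOTS-c arrays were lower than both scrambled arrays. The log2 difference of -0.38 had a standard error of 0.13 (95% confidence interval -0.73 to -0.04, 0.766-fold, unadjusted p = 0.0365, limma adjusted p = 0.599), at 24.4 to 35.8 times local background. With any array left out it ranged from -0.47 to -0.30 and lost the unadjusted p under 0.05. Slc25a46, an outer membrane member that acts in mitochondrial shape, and Slc25a43 differed by 0.12 and -0.10 with overlap, and Slc25a54 was well above background on 0 arrays (0.805 to 1.17 times local background).

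**Figure D3:**
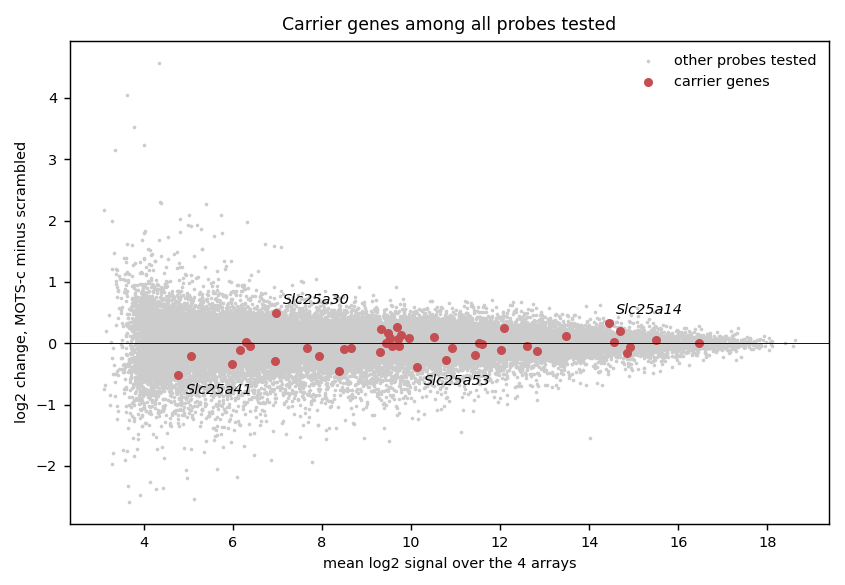
Log2 change (MOTS-c minus scrambled) against the mean log2 signal over the 4 arrays, with the 43 tested carriers in red on all probes tested in gray and the 4 carriers at an unadjusted p under 0.05 named; the carriers lie between -0.53 and 0.49 inside the cloud of all probes.

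Further probes of the same genes gave a check on single values. Among 21 carriers with more than 1 probe tested, all probes of a gene had 1 sign in 12, and the median range between the highest and the lowest probe of a gene was 0.20 on the log2 scale. For Slc25a14 a second and much dimmer probe read -0.08 and did not follow the brightest, and for Slc25a30 a dimmer probe read 0.11. As a mean over their probes, Slc25a14 differed by 0.13 and Slc25a30 by 0.30, and neither had an unadjusted p under 0.05. The 3 carriers called in that setting were Slc25a23, which was not called through its brightest probe, Slc25a41 and Slc25a53.

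Beyond the brightest probes, 2 of 29 had an unadjusted p under 0.05, a share below the 7.85% of all probes. A dimmer probe of Slc25a23 had log2 signals of 6.54 and 6.37 with scrambled peptide against 5.95 and 5.74 with MOTS-c. It was lower without overlap, at -0.61 with a standard error of 0.15 (unadjusted p = 0.00998, limma adjusted p = 0.516). A dimmer probe of Slc25a26 was higher by 0.33 (limma adjusted p = 0.625), where the brightest was lower.

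A further probe, outside the rule because its accession was unmatched, carries the symbol Slc25a30 in a table of the study. It had log2 signals of 7.43 and 7.42 with scrambled peptide against 8.08 and 8.04 with MOTS-c, higher without overlap by 0.64 (standard error 0.12, unadjusted p = 0.00369, limma adjusted p = 0.474). The study listed this probe and the dimmer Slc25a23 probe for their change on these arrays, so neither is independent evidence of direction.

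**Figure D4:**
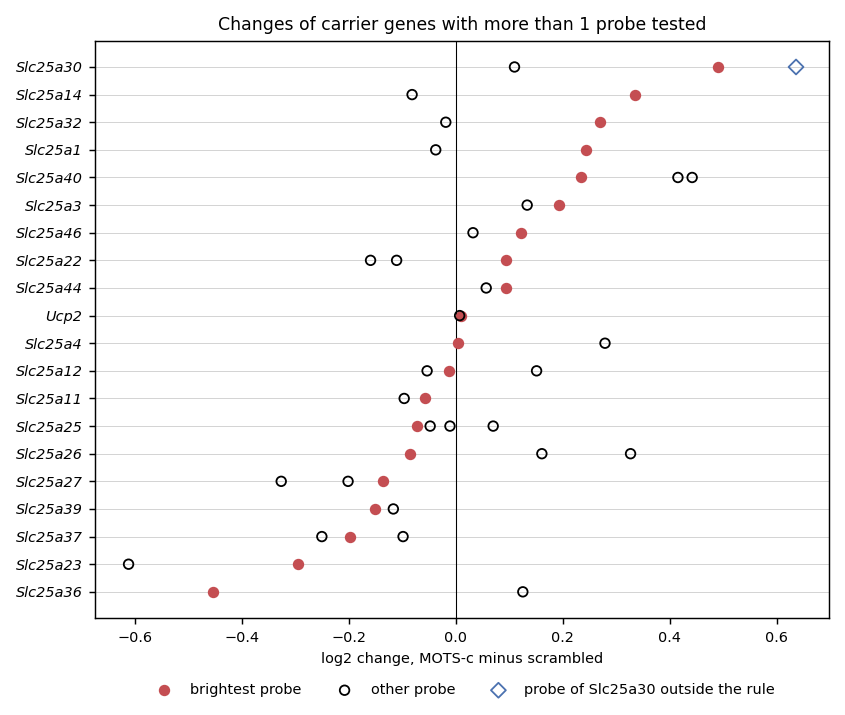
Log2 change (MOTS-c minus scrambled) of every tested probe of 20 carriers with more than 1 probe tested, with the brightest probe filled, other probes open and the Slc25a30 probe outside the rule as a diamond; probes of a gene differed by a median of 0.20 over all 21 such carriers.

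Genes that work beside the carriers differed as little. Of 43 genes in 5 related lists, 40 were tested, and their median log2 difference was 0.01. An unadjusted p under 0.05 was found for 0 of them, beside 8.61% of the brightest probes of named genes. At that share few of 40 genes would be called. The 9 genes that bring carriers into the inner membrane, the small Tim chaperones among them, ranged from -0.10 to 0.30, and Tomm70a, the import receptor for carriers, was the highest at 0.30. The 6 genes of the pyruvate carrier and outer membrane channels ranged from -0.14 to 0.06, and the 8 genes of mitochondrial calcium transport from -0.15 to 0.24.

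Among 10 sideroflexins and other mitochondrial membrane proteins, 2 were higher and 5 lower without overlap. Beside this, 42.5% of named genes had no overlap in either direction, and 18.6% of all probes were lower without overlap. Differences in the list ran from Sfxn3 at -0.37 to Sfxn2 at 0.24. Of 10 regulators of mitochondrial biogenesis and heat production, 7 were tested and ranged from -0.31 to 0.27. The coactivators Ppargc1a and Ppargc1b and the brown fat factor Prdm16 were well above background on 0 arrays.

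Some markers of other pancreatic cells differed between the groups, and their part in the carrier values was not tested. Of 8 acinar markers 3 were tested, with a summed signal of 3598 and 3927 with scrambled peptide against 2518 and 2031 with MOTS-c, and the sum rested mainly on Cela1 (log2 difference -0.76, limma adjusted p = 0.499). The other acinar markers tested were Cela2a at -0.42 with overlap and Ctrb1, which was higher on both MOTS-c arrays at 0.33. Prss2, Cpb1, Pnlip and Amy2a5 were well above background on 0 arrays. Of 7 mesenchymal markers 2 were tested, with summed signals of 202.0 and 235 against 165 and 141 and a difference of -1.05 at Pdgfra, while Col1a1, Col3a1, Pdgfrb, Lum and Dcn were well above background on 0 arrays.

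Of 6 ductal markers 3 were tested, and their summed signals overlapped, at 180.3 and 280.1 with scrambled peptide against 224 and 163 with MOTS-c, with Krt19, Sox9 and Cftr well above background on 0 arrays. Summed signals of the 2 endothelial, 3 macrophage and leukocyte, 4 adipocyte and 1 erythroid markers tested overlapped between the groups, and none of these markers had an unadjusted p under 0.05. The brightest probes, Ins1 and Ins2 among them, get values largely by rank under quantile normalization. Ins2 read 18.54 on scrambled replicate 1 and on both MOTS-c arrays. A sum that rests mainly on Ins1 and Ins2 therefore says little about endocrine content. With this limit, the summed signals of the 8 islet endocrine markers overlapped between the groups, and none had an unadjusted p under 0.05. Without overlap, 3 of them were higher (Gcg at 0.11, Iapp at 0.07 and Mafa at 0.16) and 2 lower (Pdx1 at -0.28 and Ins1 at -0.04), and Ins2 (-0.05), Sst (-0.28) and Ppy (0.32) overlapped.

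The methods' t-test and limma with a trend keep the same log2 difference and cannot turn its sign. Groups without overlap can hardly change side when an array is left out. With these limits, the 4 carriers at an unadjusted p under 0.05, all without overlap, kept their direction in all 12 alternative settings. Over these settings Slc25a30 ranged from 0.30 to 0.53, with an unadjusted p under 0.05 in 10 of them, and Slc25a53 from -0.47 to -0.30, with 7. Slc25a14 ranged from 0.13 to 0.45 and Slc25a41 from -0.66 to -0.13, each with 6. No carrier reached an adjusted p under 0.05 in any setting.

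**Figure D5:**
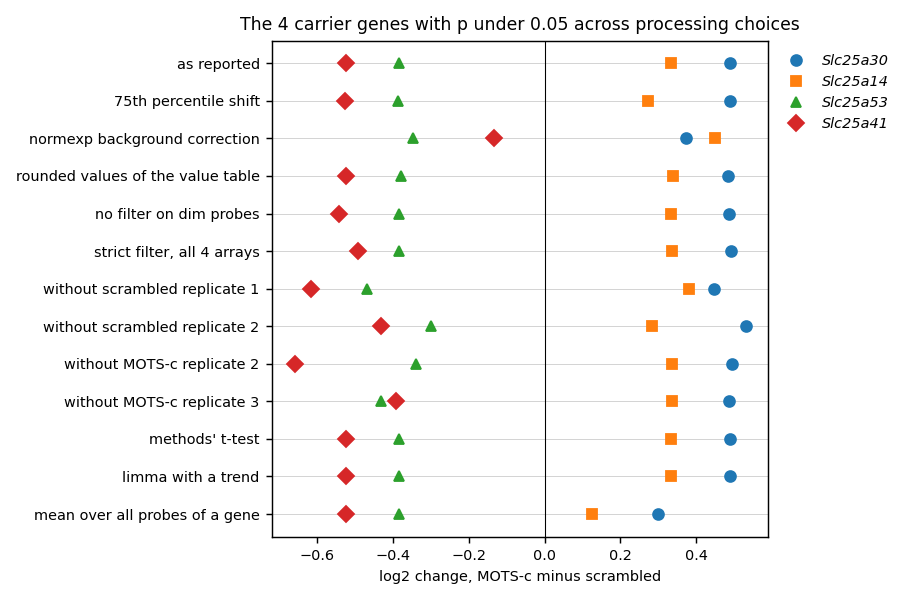
Log2 change (MOTS-c minus scrambled) of the 4 carriers at an unadjusted p under 0.05, as reported and under each of 12 alternative settings (rows); each gene keeps its side of 0, and Slc25a41 moves nearest to 0 at -0.13 with the normexp correction.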

How the data were processed

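RNA of 4 islet cell samples was hybridized to single-color Agilent arrays. The authors labeled 100 ng of RNA with Cy3, scanned the arrays and read the spots with Feature Extraction 11.0.1.1, and the deposited intensity values are background corrected and not normalized between arrays. The authors' value table holds the same intensity values rounded. Groups and replicate numbers came from the labels.

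Control spots (3671 per array) and 96 to 131 outlier spots per array were left out, values were put on the log2 scale and spots of a probe averaged. The 35087 probes that stood well above background on 2 or more arrays were quantile normalized and compared with limma 3.58.1 in R 4.3.3, with Benjamini-Hochberg adjustment over all probes (2 residual and 2.64 prior degrees of freedom). Well above background spots made up 61.6 to 65.0% of gene spots, 0 gene spots were saturated, and the number of arrays limits the precision. The scripts were tested on simulated data.

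Of 56605 probes, 32994 were named through RefSeq accessions of GRCm38.p6 and 23599 were unmatched. The array design is annotated on mm9, so no probe coordinates are given. The brightest probe has the highest mean log2 signal over the 4 arrays. Promoters were found for 39 of 50 carriers. Slc25a41 is not among them.

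Values on every array are given for carriers at an unadjusted p under 0.05, those without overlap and changed by at least 1.25-fold, and the aspartate, glutamate, oxoglutarate, dicarboxylate, citrate, ADP/ATP, phosphate and uncoupling carriers. Some genes are not reported here. Slc25a36, Slc25a29 and single dimmer probes were added after their values were seen. The members, roles, related lists and markers were chosen with earlier results of these data known. The alternatives were a 75th percentile shift, normexp correction with an offset of 50 (on median spot signals), the rounded table, no filter, a filter on all 4 arrays, leaving out each array, limma with a trend, the methods' t-test and the mean over probes of a gene.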

Additional observations from a re-analysis of the deposited data

How the results depend on the processing

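Of 17 carriers given with the brightest probe's values on every array, 11 kept their sign in all 12 settings. Among the settings, the methods' t-test and limma with a trend keep the same log2 difference and could not turn a sign. The 13 values that turned lay near 0. With the 75th percentile shift these were Slc25a4 (-0.071), Slc25a5 (-0.026) and Ucp2 (-0.0014), with normexp correction Slc25a12 (0.035) and Slc25a4 (-0.013), and with the mean over probes Slc25a12 (0.028) and Slc25a22 (-0.059). Leaving out an array gave Ucp2 values from -0.11 to 0.12, Ucp3 from -0.089 to 0.011, Slc25a12 from -0.095 to 0.069 and Slc25a4 from -0.075 to 0.085. The cause was not tested.

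The count of carriers at an unadjusted p under 0.05 was 4 in the chosen processing and 2 with the methods' t-test (Slc25a14 and Slc25a30, beside 6.59% of probes), which called 1 of 35084 probes after adjustment and 2312 before it. It was 0 of 43 without scrambled replicate 1, beside 5.21% of all probes, and 2 of 43 without any other array, beside 4.55% (scrambled replicate 2), 13.0% (MOTS-c replicate 2) and 6.07% (MOTS-c replicate 3). In the other settings it was 3 or 4 of 43, beside 7.68 to 8.87%, and without a filter 6 of 50, beside 8.18%. The 6 included Slc25a45, which was well above background on no array. Carriers without overlap of the groups numbered 19, and 27 to 34 with an array left out, where a group of 1 array overlaps less often by construction. The median change over all tested carriers stayed between -0.08 and -0.00 in each setting in which it was computed. After adjustment limma called 0 of all probes, and before it 2755. No paired analysis was possible because the groups share only 1 replicate number.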
